A study of Homo sapiens with 10 samples.

Results

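Long-chain fatty acids enter metabolism only after an acyl-CoA synthetase has joined them to coenzyme A. The ACSL enzymes and several fatty acid transport proteins of the SLC27A family carry out this activation at the endoplasmic reticulum, the outer mitochondrial membrane, lipid droplets and the plasma membrane. The acyl-CoA they make is the substrate of CPT1A, which passes it on to carnitine for oxidation in the mitochondria, and of the acyltransferases that build phospholipids and storage lipids. The genes described here were 5 ACSL genes (ACSL1, ACSL3, ACSL4, ACSL5 and ACSL6) and 2 transport protein genes (SLC27A2 and SLC27A4). They were chosen by symbol from a table of 57353 gene symbols, and all 7 were in the table. Earlier results of these data were known when the genes were chosen, so how these 7 compare with all genes is a description only.

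Counts of RNA sequencing reads per gene were analysed for 10 samples of LNCaP-C4-2, an established castration-resistant prostate cancer cell line. The knockdown arm had 2 samples carrying a non-targeting shRNA (NT) and 3 in which an shRNA lowered CPT1A (KD). The over-expression arm had 2 samples with the empty virus (EV) and 3 with a lentiviral CPT1A cDNA (OE). According to the labels, NT and KD cells were selected with puromycin at 1 ug/ml, and EV and OE cells with blasticidin at 5 ug/ml. NT served as the control of KD, and EV as the control of OE. Each group is 1 cell line made with 1 construct, and separate transductions are not described, so the p values measure the spread between samples of a line, which may be technical. All 4 lines grew in the same medium with fetal bovine serum.

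CPT1A levels matched the labels in every sample, with means of 264 CPM (counts scaled to library size) for NT, 84.6 for the KD line, 322 for EV and 882 for the OE line. Sequencing depth ranged from 23555205 to 28615770 counts, and the lowest count of any of the 7 genes, 2 reads of ACSL6 in OE replicate 1, lies below the floor of 3 counts used here for detection. The 11 luminal prostate markers examined, such as KLK3, were all tested, with summed levels of 6571 to 6847 CPM in NT, 9556 to 10420 in KD, 9194 to 9666 in EV and 12800 to 13280 in OE. The defining leukocyte gene PTPRC had at most 1 read in any sample, and the basal gene KRT5 and the endothelial gene PECAM1 had none. Of the other markers of these cell types, the basal gene KRT14 had 9 to 47 reads per sample and the endothelial gene VWF 159 to 226. The others (CD3E, CD14, LYZ, TP63 and CDH5) had no reads in some or all samples, and at most 7 in any. KD replicate 2 stood apart from its replicates, with chi-square values of 6.65 and 6.83 (relative to the degrees of freedom, over all genes) against them, where the NT pair had 2.46. OE replicate 2 had 3.82 and 4.39 against its own replicates.

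The quasi-likelihood test of edgeR was run on all 17230 genes that passed the expression filter, among them all 7 genes described here. Adjusted p refers to the Benjamini-Hochberg value over these 17230 genes. A gene was called when its adjusted p was under 0.0001, the limit of the study, and only called genes are said to have risen or fallen. Fold changes are on the log2 scale with standard errors (SE), and CPM are scaled with TMM. In bulk samples, fewer expressing cells and less RNA per cell cannot be told apart.

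The stretches of genome before the 4 most abundant members are shown because these genes were higher together in KD than in NT. They were read from RefSeq (GRCh38.p14) and end before the first annotated exon base. Capitals mark the GC box, GGGCGG on either strand, with overlapping matches run together. None of the 4 stretches holds an exon in GENCODE: that of ACSL1 is intronic to longer ACSL1 transcripts, that of SLC27A2 is intronic to ATP8B4 on the other strand, and the others are intergenic.
ACSL1 (chr4:184826120-184826218, minus strand): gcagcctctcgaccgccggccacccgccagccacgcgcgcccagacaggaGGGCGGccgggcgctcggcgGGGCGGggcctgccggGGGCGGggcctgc
ACSL3 (chr2:222860786-222860941, plus strand): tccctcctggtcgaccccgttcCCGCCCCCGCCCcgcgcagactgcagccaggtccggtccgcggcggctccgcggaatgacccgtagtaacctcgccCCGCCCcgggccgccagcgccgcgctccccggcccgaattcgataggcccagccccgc
SLC27A2 (chr15:50181946-50182195, plus strand): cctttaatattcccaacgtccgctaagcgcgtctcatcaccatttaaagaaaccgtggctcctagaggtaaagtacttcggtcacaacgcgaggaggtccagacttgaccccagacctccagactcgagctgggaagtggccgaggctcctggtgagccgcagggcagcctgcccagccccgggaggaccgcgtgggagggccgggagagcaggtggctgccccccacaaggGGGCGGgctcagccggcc
SLC27A4 (chr9:128340277-128340526, plus strand): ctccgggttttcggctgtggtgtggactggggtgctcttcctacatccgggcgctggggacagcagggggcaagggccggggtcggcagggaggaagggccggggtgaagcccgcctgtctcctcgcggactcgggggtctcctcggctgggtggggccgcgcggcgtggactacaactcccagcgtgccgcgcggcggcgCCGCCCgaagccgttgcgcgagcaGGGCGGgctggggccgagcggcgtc

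In windows of 300 bases around the start sites, 250 before and 50 after, the GC box was found in 6 of the 7 genes and in 44.6% of 27305 RefSeq promoters. ACSL1 had 6 matches, the ACSL3 and ACSL4 windows had 3 each, and the ACSL5 window, which lies 1152 bases from the start of its main transcript, had none. The GC content of the windows was 82.3% for ACSL1, 74.0% for ACSL3 and 51.0% for ACSL5, with a median of 58.3% over all promoters. The full androgen response element and the PPAR direct repeat, each searched on both strands, were in none of the 7 windows. These motifs are rare at start sites, with 0.00366% and 0.022% of all promoters, so their absence says nothing about the factors that bind them.

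The genes differed widely in level. Per kilobase of main transcript, the order ACSL1, ACSL3, SLC27A4, SLC27A2, ACSL4, ACSL5 and ACSL6 held in all 10 samples. In NT the mean level was 70.1 CPM per kilobase for ACSL1 and 30.7 for ACSL3. SLC27A4 followed at 13.4 and SLC27A2 at 8.41 CPM per kilobase in the same line. ACSL4 had 0.476, ACSL5 0.108 and ACSL6 0.0593 CPM per kilobase in NT, so the last 3 genes were a small part of the total. The mean share of ACSL4 in the summed level ran from 0.261% in OE to 0.565% in EV. With the length of all annotated exons in place of the main transcript, ACSL3 stood above SLC27A4 in 5 of 10 samples only, and the other steps of the order held in all 10.

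**Figure D1:**
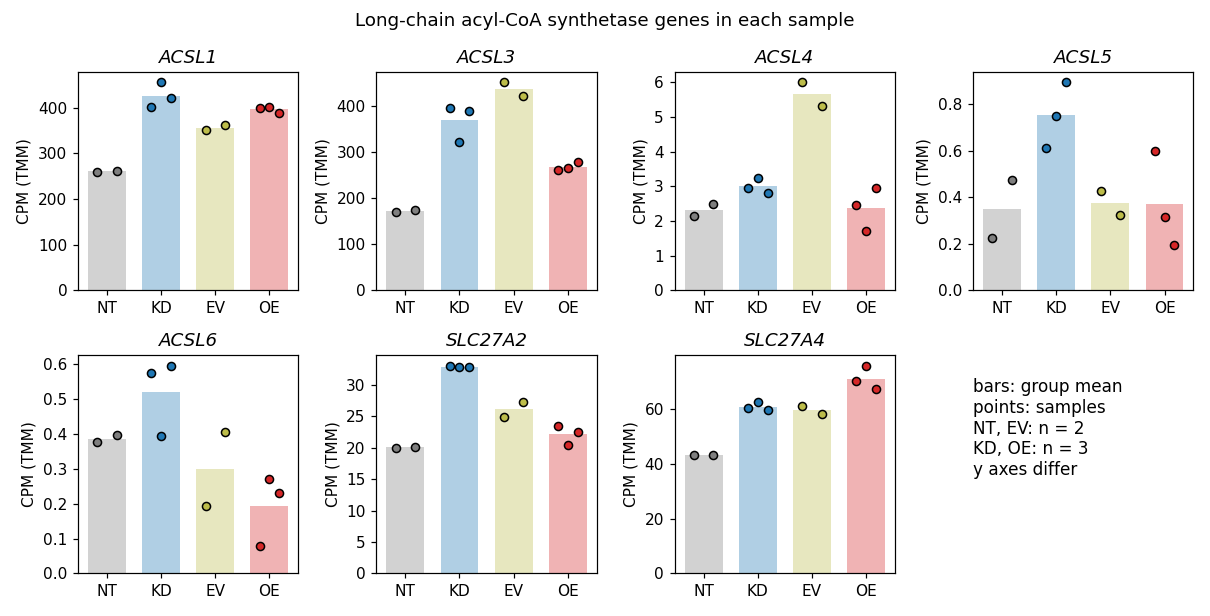
Level of each of the 7 genes in CPM after TMM scaling, by cell line, with bars for the group mean and points for single samples (n = 2 in NT and EV, n = 3 in KD and OE). The y axes differ between genes; ACSL1 and ACSL3 reach 456 and 450 CPM, ACSL5 and ACSL6 stay under 1 CPM, and NT is the lowest line for ACSL1, ACSL3, SLC27A2 and SLC27A4.

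The first comparison asked how the activating enzymes differ when CPT1A is lowered. In KD versus NT, 4 of the 7 genes rose and none fell, where 29.1% of all tested genes were called, 16.4% higher. The genes that rose were ACSL1, ACSL3, SLC27A2 and SLC27A4, by 1.41 to 2.15-fold. The median log2 fold change of the 7 genes was 0.71, beside -0.02 over all tested genes. ACSL4, ACSL5 and ACSL6 were not called. The summed level of 6 fibroblast markers, 3 of them tested, was also higher in KD, at 18.5 to 19.9 CPM beside 10.9 to 12.51 CPM in NT, with COL1A2 at 0 in every sample. The sum of 3 basal markers, 1 of them tested, was 1.49 to 1.85 CPM in KD beside 0.377 to 0.477 CPM in NT. The part of these markers in the differences was not tested.

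ACSL1, the family member best known for channelling fatty acids to oxidation and triglyceride synthesis in liver, muscle and fat, lies on chromosome 4 from 184755595 to 184826818 (GRCh38, minus strand). Its level was 259.7 and 261 CPM in the NT samples, 401, 455.5 and 421 CPM in the KD samples, 350.8 and 361 CPM in the EV samples and 399.7, 401.5 and 387 CPM in the OE samples. The NT samples were the lowest, and the OE values lay within or just under the range of the KD values. ACSL1 rose in KD versus NT by 0.71 ± 0.05 (log2 fold change ± SE, edgeR quasi-likelihood test, adjusted p = 1.8e-11). In OE versus EV the difference was 0.15 ± 0.05, which missed the limit (edgeR, adjusted p = 0.0118), although the groups did not overlap.

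ACSL3, an enzyme of the endoplasmic reticulum and of lipid droplets that is a classical androgen-induced gene of LNCaP cells, lies on chromosome 2 from 222860942 to 222944639 (plus strand). Its level was 169.6 and 173 CPM in NT, 395, 322 and 387 CPM in KD, 450.5 and 421 CPM in EV, and 259.4, 264 and 277 CPM in OE. The 4 lines did not overlap in any pair, and their order from low to high was NT, OE, KD and EV. ACSL3 rose in KD versus NT by 1.10 ± 0.07 (edgeR, adjusted p = 6.27e-13). It fell in OE versus EV by 0.71 on the log2 scale, with an SE of 0.06 (edgeR, adjusted p = 2.13e-09). KD replicate 2, the sample that stood apart, was the lowest of the KD samples at 322 CPM, and without it the change in KD versus NT was 1.19.

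SLC27A2, also called FATP2, activates very long-chain and long-chain fatty acids in peroxisomes and the endoplasmic reticulum. The gene lies on chromosome 15 from 50182196 to 50236385 (plus strand), and 557 bases of its exons overlap exons of ATP8B4 on the other strand, which had 8 to 22 reads per sample. Levels of SLC27A2 were 20.05 ± 0.07 CPM in NT (SD, n = 2, both samples at about 20), 33.1, 32.8 and 32.8 CPM in KD, 24.9 and 27.3 CPM in EV, and 23.5, 20.4 and 22.4 CPM in OE. The KD samples were higher than all others and differed from each other by less than 1 CPM. SLC27A2 rose in KD versus NT by 0.71 ± 0.07 (edgeR, adjusted p = 1.1e-08). In OE versus EV the difference was -0.24 ± 0.07, outside the limit (edgeR, adjusted p = 0.00956).

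SLC27A4, or FATP4, is an acyl-CoA synthetase of the endoplasmic reticulum known for its part in fatty acid uptake and in the skin barrier. It lies on chromosome 9 from 128340527 to 128361470 (plus strand). Its level was 43.2 CPM in both NT samples, 60.4, 62.8 and 59.7 CPM in KD, 61.3 and 58.3 CPM in EV, and 70.4, 76.0 and 67.4 CPM in OE. NT was the lowest line and OE the highest, while KD and EV overlapped. SLC27A4 rose in KD versus NT by 0.50 ± 0.06 (edgeR, adjusted p = 1.32e-07). In OE versus EV the value was 0.25 ± 0.06, with no overlap between the groups but an adjusted p of 0.000761 (edgeR), which missed the limit.

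ACSL4, which prefers arachidonic acid and other polyunsaturated fatty acids and is known for its role in ferroptosis, was present at a low level. The gene lies on chromosome X from 109624244 to 109733403 (minus strand). Its counts were 57 and 63 in NT, 77, 82 and 85 in KD, 154 and 131 in EV, and 62, 38 and 76 in OE. On the CPM scale these were 2.15 and 2.50 in NT, 2.95, 3.24 and 2.82 in KD, 6.01 and 5.31 in EV, and 2.47, 1.72 and 2.94 in OE. The EV samples stood above every other sample, and the OE samples overlapped both NT and KD.

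The second comparison, OE versus EV, asked how the same enzymes differ when CPT1A is raised. Here 2 of the 7 genes fell and none rose, where 21.9% of all tested genes were called, 10.3% lower. The genes were ACSL3, given above, and ACSL4, which fell by 1.24 on the log2 scale, or 2.35-fold, with an SE of 0.17 (edgeR, adjusted p = 2e-06). Without EV replicate 1 the value for ACSL4 was -1.13 and missed the limit (edgeR, adjusted p = 0.000234), and without EV replicate 2 it was -1.32 and stayed within the limit (edgeR, adjusted p = 3.25e-05). In KD versus NT the value of ACSL4 was 0.37 ± 0.19 with a 95% interval from -0.03 to 0.76 (edgeR, adjusted p = 0.109). At an adjusted p under 0.05, 5 of the 7 genes differed in OE versus EV, 2 higher and 3 lower, where 52% of all tested genes did. Fibroblast markers summed to 13.62 to 15.83 CPM in OE and 10.57 to 11.64 CPM in EV, and 3 endothelial markers, 1 of them tested, to 8.75 to 9.46 CPM in OE and 6.28 to 6.45 CPM in EV, with no overlap. Their part in these differences was not tested.

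ACSL5 and ACSL6 were near the limit of detection. ACSL5, an enzyme of mitochondria and the endoplasmic reticulum best known in the intestine, had 6 and 12 reads in NT, 16, 19 and 27 in KD, 11 and 8 in EV, and 15, 7 and 5 in OE. The KD samples were the highest in CPM, from 0.613 to 0.896, and the other 3 lines overlapped. Its value in KD versus NT was 1.11 ± 0.43 (edgeR, adjusted p = 0.0324), but 0.66 without NT replicate 1 and 1.72 without NT replicate 2 (edgeR, adjusted p = 0.319 and 0.0256). In OE versus EV it was -0.03 ± 0.50 with a 95% interval from -1.06 to 1.00 (edgeR, adjusted p = 0.967). Exons of ACSL5 share 144 bases with ZDHHC6 on the other strand, which had 304 to 859 reads per sample, and the strand setting of the counts is not stated, so a part of these few reads cannot be assigned with certainty.
ACSL6, known mainly from brain and testis, had 10 and 10 reads in NT, 15, 10 and 18 in KD, 5 and 10 in EV, and 2, 6 and 6 in OE. The lines overlapped in both arms, with 0.44 ± 0.43 in KD versus NT and -0.62 ± 0.57 in OE versus EV (edgeR, adjusted p = 0.404 and 0.378). An annotated gene on the same strand covers 2037 exon bases of ACSL6, so its reads may also be split between gene models. In OE versus KD, where their samples did not overlap, ACSL5 had -1.03 ± 0.38 and ACSL6 -1.43 ± 0.45, outside the limit (edgeR, adjusted p = 0.0243 and 0.00861).

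**Figure D2:**
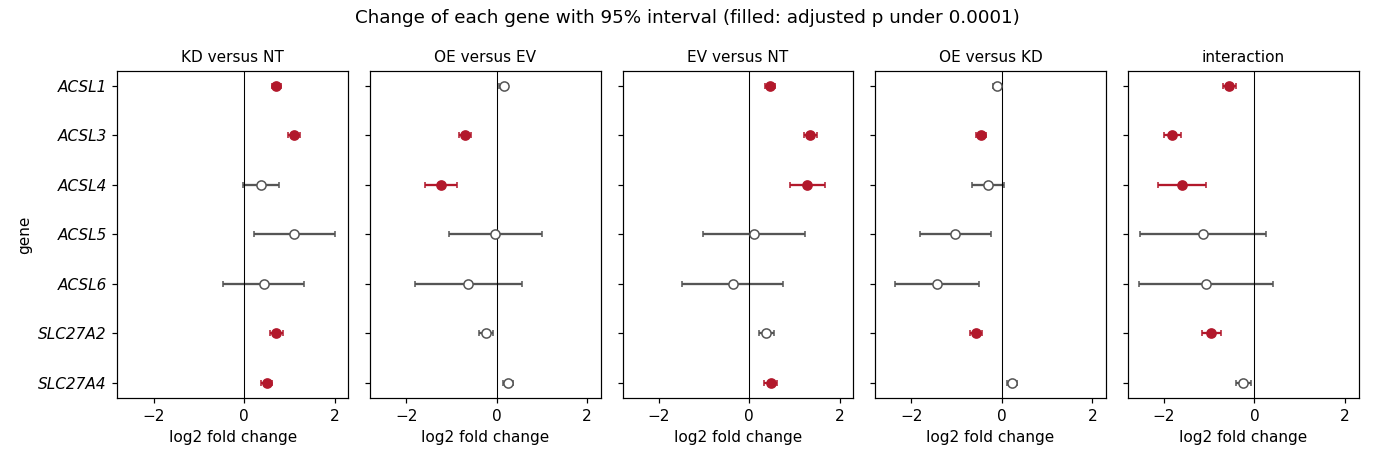
Log2 fold change of each gene (x axis) in 5 comparisons of the cell lines, with 95% intervals from edgeR and filled points where the adjusted p was under 0.0001. The 4 filled points of KD versus NT are all above 0 and the 2 of OE versus EV below 0, and the intervals of ACSL5 and ACSL6 are the widest.

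The controls also differed from each other in the levels of some of these genes. In EV versus NT, 4 of the 7 genes were higher and none lower, where 8.16% of all tested genes were called, 5.25% higher and 2.91% lower. At an adjusted p under 0.05, 5 of the 7 were higher, where 34.1% of all tested genes differed. The 4 called genes were ACSL3 at 1.35 ± 0.07, ACSL4 at 1.28 ± 0.19, ACSL1 at 0.45 ± 0.05 and SLC27A4 at 0.47 ± 0.06 (edgeR, adjusted p = 3.17e-13, 1.35e-05, 7.85e-07 and 4.93e-06). For ACSL3 this stands beside 1.10 in KD versus NT, a comparison that shares the NT samples. For ACSL4 the adjusted p ran from 0.000112 to 0.000991 when any 1 of the NT or EV samples was left out, and for SLC27A4 the call was lost without NT replicate 1, NT replicate 2 or EV replicate 1 (edgeR, adjusted p = 0.000302, 0.000281 and 0.000705). ACSL1 and ACSL3 were called in each of these fits. SLC27A2 had 0.38 ± 0.08 (edgeR, adjusted p = 0.000791) and was not called. The vector, the selection drug and any difference between the lines cannot be told apart in this comparison.

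The interaction, which is the change in OE versus EV minus the change in KD versus NT and the form in which the study set OE against KD, shares its control samples with both arms. In the interaction 4 of the 7 genes were lower and none higher, where 15.9% of all tested genes were called, 8.98% lower and 6.94% higher. At an adjusted p under 0.05, 5 of the 7 were lower and none higher, where 44.3% of all tested genes differed, 24% lower and 20.3% higher. ACSL3 had -1.81 ± 0.09, ACSL4 -1.60 ± 0.26, SLC27A2 -0.95 ± 0.10 and ACSL1 -0.56 ± 0.07 (edgeR, adjusted p = 8.97e-14, 1.82e-05, 7.21e-08 and 6.46e-07). For ACSL4 the call was lost without NT replicate 1 (-1.49) or without EV replicate 1 (-1.49), with adjusted p = 0.000345 and 0.000304 (edgeR). SLC27A4 had -0.25 ± 0.08 (edgeR, adjusted p = 0.0182), with values above 0 in each arm. For ACSL1 both arms were above 0, with 0.71 in KD versus NT and 0.15 in OE versus EV, and for ACSL4 the arms were 0.37 and -1.24.

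When OE was set against KD without the controls, 2 of the 7 genes were lower, where 31.9% of all tested genes were called, 16.4% lower. At an adjusted p under 0.05, 5 were lower and 1 higher, where 59.8% of all tested genes differed. ACSL3 had -0.46 ± 0.06 and SLC27A2 -0.57 ± 0.06 (edgeR, adjusted p = 1.49e-07 and 4.66e-08). ACSL1 had -0.10 ± 0.04 with overlapping samples, and ACSL4 had -0.32 ± 0.17 with a 95% interval from -0.67 to 0.04 (edgeR, adjusted p = 0.0456 and 0.116). SLC27A4 went the other way, with 0.22 ± 0.05 and no overlap, but missed the limit (edgeR, adjusted p = 0.000532). Thus the interaction of -1.60 for ACSL4 stands beside OE and KD levels that overlapped, and EV was the line that differed from the rest.

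The summed level of the 7 genes, per kilobase of main transcript, was 122.7 and 123.8 CPM per kilobase in the NT samples, 212 to 216 in KD, 203.6 and 206 in EV and 185.0 to 188 in OE. The lines did not overlap, and the NT line had the lowest sum. ACSL1 made up the largest share in every sample, with a mean of 56.9% for NT, 53.5% for KD, 46.8% for EV and 57.2% for OE. The ACSL3 share was 24.9% ± 0.2 in NT (SD, n = 2), 30.8% ± 3.4 in KD (n = 3), 38.2% ± 1.5 in EV (n = 2) and 25.7% ± 1.0 in OE (n = 3). The ratio of ACSL1 to ACSL3 per kilobase was therefore lowest in EV, 1.17 and 1.29, and lay between 2.10 and 2.32 in OE, close to the NT values of 2.27 and 2.3. SLC27A4 exceeded SLC27A2 per kilobase by 1.34 to 1.41 times in KD and by 2.21 to 2.75 times in OE. These shares use 1 transcript length per gene and are given as a description without a test.

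**Figure D3:**
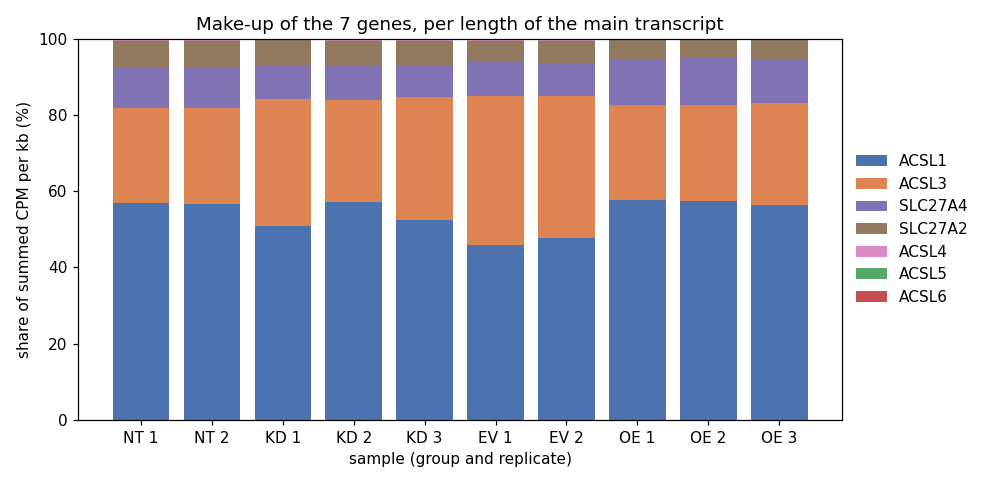
Share of each gene in the summed CPM per kilobase of main transcript of the 7 genes, as stacked bars in percent for each of the 10 samples. ACSL1 and ACSL3 fill most of each bar, the ACSL3 part is widest in the 2 EV samples, and ACSL4, ACSL5 and ACSL6 are too small to see.

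The longest run of identical bases between any 2 of the main transcripts was 26, between ACSL3 and ACSL4, and the reads were 150 bases long before trimming. ACSL3 shared a run of 45 bases with its processed pseudogene ACSL3P1.

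Across the 10 samples, the log2 CPM of the members were related to different degrees. The Pearson correlation was 0.86 between ACSL1 and SLC27A4, 0.75 between ACSL3 and SLC27A2 and 0.71 between ACSL3 and ACSL4, and -0.43 between ACSL6 and SLC27A4. These points share 4 lines and their libraries, so the values describe the pattern of the lines only. Of 12717 other genes with an average log2 CPM of at least 1, those most like ACSL3 were HERC3 (0.99), SMS (0.98) and RHOU (0.98). Closest to SLC27A4 were CPNE1, MYO1C and STIM1, each at 0.99, and among the closest to SLC27A2 were ZCCHC14 and MEX3A, each at 0.99. ACSL1 was followed most closely by NUDC, ANKS1A and TSR2, at 0.99 each.
ACSL4 was most like B4GALNT3 (0.96), ALDH1L2 (0.95) and AVL9 (0.94). ALDH1L2, a mitochondrial folate enzyme, had a mean of 15.4 CPM in EV and 1.12, 1.62 and 0.717 CPM in NT, KD and OE. The EV line thus carried the highest level of both genes, by a far greater factor for ALDH1L2. For ACSL5 and ACSL6, with few reads, the closest genes were DDX19A (0.91) and HAS3 (0.97).

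The tested genes near each member were examined as well, among the 14153 of 17230 tested genes that could be placed by symbol. Around ACSL5, on chromosome 10 from 112374116 to 112428379, 29 of 31 such genes within 5 Mb had lower levels in OE than in EV. The median of the 31 genes was -0.73 on the log2 scale. In either direction 23 were called, with only ADRA2A higher among them, where 21.9% of all tested genes were called, 10.3% lower. Over all tested genes the median was -0.02. The nearest tested neighbours were GPAM, an acyltransferase that uses long-chain acyl-CoA, at -0.63 and ZDHHC6 at -0.47, and the exceptions were ADRA2A at 2.19 and TDRD1 at 0.25 (these 4 were chosen after their values were seen). In KD versus NT the same 31 genes had a median of -0.08, with 14 higher. ACSL5 itself had -0.03 in OE versus EV, but its interval covers the median of its neighbours. The part of the location in the ACSL5 value was not tested. The medians within 5 Mb in the same comparison were -0.15 for ACSL1, 0.16 for ACSL3, -0.16 for ACSL4 and SLC27A2, and 0.15 for SLC27A4. For ACSL6 it was -0.31, with 33 of 47 neighbours lower.

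**Figure D4:**
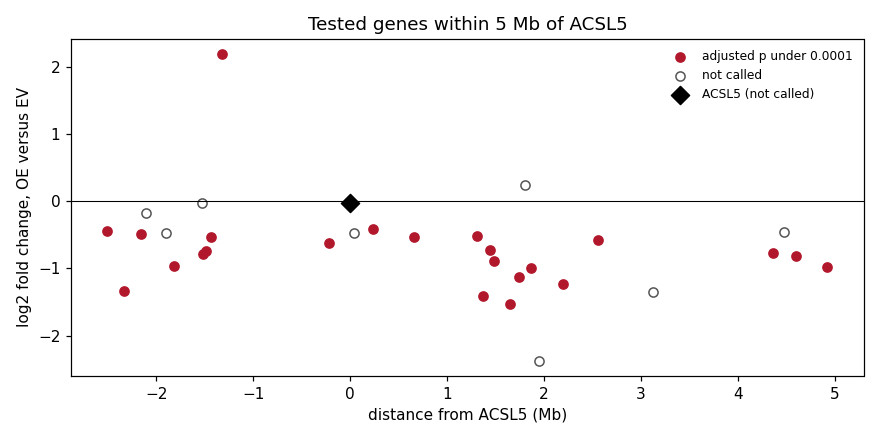
Log2 fold change in OE versus EV (y axis) of tested genes against their distance in Mb from ACSL5 (x axis), with filled points for genes at an adjusted p under 0.0001. Of the 31 neighbours 29 lie below 0, and ACSL5, drawn as a diamond, lies at -0.03.

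Other genes of fatty acid activation and handling were read as whole lists, and the genes named in each list are among the 3 with the smallest interaction p. Beside the counts in these lists stand the 29.1% of all tested genes called in KD versus NT and the 21.9% called in OE versus EV, where the median of all tested genes was -0.02 in each. Of 6 further long-chain and very long-chain synthetases, 4 were tested. None of these 4 was called in KD versus NT, and 1 rose and none fell in OE versus EV, with medians of 0.17 and 0.23. In EV versus NT none of them was called either, with a median of 0.12, where 8.16% of all tested genes were called. SLC27A5, the bile acid and very long-chain synthetase, rose in OE versus EV by 0.82, from a mean of 28.4 to 50.2 CPM (edgeR, adjusted p = 4.92e-10), and was higher in the interaction by 0.51 (edgeR, adjusted p = 8.44e-05), opposite in sign to the called members. SLC27A1, a fatty acid transport protein known from muscle and fat, had 0.20 in OE versus EV, and ACSBG1, a synthetase known from brain, had 1.28 in KD versus NT (edgeR, adjusted p = 0.0176 and 0.000221), neither of which was called.

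Of 13 short- and medium-chain synthetases 8 were tested, with 3 higher in KD versus NT and 1 of each direction in OE versus EV. The list medians in these comparisons were 0.26 and -0.02. ACSM3, a mitochondrial medium-chain enzyme, had means of 44.8 CPM for NT, 67.9 for KD, 69.5 for EV and 32.0 for OE. The EV and KD samples overlapped, which those of ACSL3 did not, and the OE samples were the lowest. ACSM3 fell in OE versus EV by 1.11 and rose in KD versus NT by 0.60 (edgeR, adjusted p = 6.77e-13 and 8.58e-09). ACSM1 rose in KD versus NT by 1.48 from a mean of 1.77 CPM, and ACSS2, which makes acetyl-CoA from acetate, rose in both arms, by 0.58 in KD versus NT and 0.32 in OE versus EV (edgeR, adjusted p = 2.49e-07, 1.84e-08 and 9.41e-05).

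The acyl-CoA thioesterases split acyl-CoA again into the free acid and coenzyme A. Of 8 tested, 3 rose and none fell in KD versus NT (37.5%, near the share of all genes), and 1 fell in OE versus EV, a lower share than that of all genes. The list medians were 0.40 and 0.16. ACOT7 rose in KD versus NT by 0.90 and ACOT9 by 0.46 (edgeR, adjusted p = 5.82e-11 and 5.57e-05). THEM4 was the gene that fell in OE versus EV, by 0.57 (edgeR, adjusted p = 6.26e-07).
Of 8 tested genes of fatty acid uptake and binding, 4 rose and none fell in KD versus NT, and 1 rose in OE versus EV, with medians of 0.75 and 0.05. DBI, the acyl-CoA binding protein that carries the product of these enzymes, rose in KD versus NT by 1.02, from 75.6 to 153 CPM (edgeR, adjusted p = 1.3e-12). GOT2 and MFSD2A also rose, by 0.91 and 1.72 (edgeR, adjusted p = 3.46e-13 and 5.68e-10). For DBI the value in OE versus EV was -0.09 (edgeR, adjusted p = 0.224).

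Of 18 tested acyltransferases that use acyl-CoA, 8 rose and 1 fell in KD versus NT, and 3 rose and 4 fell in OE versus EV, with medians of 0.30 and 0.003. SOAT1, which esterifies cholesterol, rose in KD versus NT by 1.27 and fell in OE versus EV by 0.87 (edgeR, adjusted p = 1.14e-12 and 7.57e-10). Its order of lines, 14.1 CPM in NT, 21.9 in OE, 33.9 in KD and 39.9 in EV, was that of ACSL3. LPCAT1, an enzyme of phosphatidylcholine remodelling, rose in KD versus NT by 0.86 and had -0.04 in OE versus EV (edgeR, adjusted p = 2.91e-12 and 0.52). MBOAT2, which prefers monounsaturated acyl-CoA, fell in OE versus EV by 0.53 and was higher in EV than in NT by 1.05 (edgeR, adjusted p = 1.86e-08 and 2.06e-12).

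Of 11 tested lipid genes tied to ferroptosis, the process in which ACSL4 takes part, 5 rose and none fell in KD versus NT, and 5 rose and 1 fell in OE versus EV, with medians of 0.35 and 0.22. SCD, which makes monounsaturated fatty acids, rose in both arms, by 1.25 in KD versus NT and 0.80 in OE versus EV (edgeR, adjusted p = 2.97e-16 and 3.2e-12). GPX4, which reduces lipid hydroperoxides, rose in OE versus EV by 0.35 and had 0.07 in KD versus NT (edgeR, adjusted p = 5.77e-06 and 0.298). Some of these genes, such as MBOAT2, stand in 2 lists.

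Targets of PPAR, which controls ACSL1 in several tissues, were mixed. Of 11 tested, CPT1A included, 4 rose and 3 fell in KD versus NT, and 2 rose and 1 fell in OE versus EV, with medians of 0.14 and 0.22. CPT1A, the gene changed by design, was among those that fell in KD versus NT and those that rose in OE versus EV. FGF21, a hormone of the fasting response, fell in KD versus NT by 2.01 (edgeR, adjusted p = 2.53e-08).

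The last list held androgen-induced genes other than ACSL3, some of them also luminal markers. Of 14 tested, 13 rose in KD versus NT and 13 were higher in EV than in NT, with medians of 1.01 and 0.93. Of all tested genes, 16.4% were called higher in KD versus NT and 5.25% in EV versus NT. Both comparisons use the same NT samples. In OE versus EV, where ACSL3 fell, 4 rose and 2 fell, with a median of -0.003. In the interaction, which shares its controls with both arms, ACSL3 had -1.81. There 11 of the 14 were lower and none higher, with a median of -0.99, where 15.9% of all tested genes were called, 8.98% lower. In OE versus EV, FKBP5 and ABCC4 were the 2 that fell, by 0.62 and 0.41 (edgeR, adjusted p = 2.3e-09 and 1.06e-07). CENPN had -0.07 in OE versus EV (edgeR, adjusted p = 0.229). In the interaction FKBP5, ABCC4 and CENPN had -2.50, -1.32 and -1.30 (edgeR, adjusted p = 2.95e-17, 1.28e-13 and 4.75e-13). The part of androgen response in the levels of ACSL3 was not tested.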

How the data were processed

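RNA sequencing (Universal Plus mRNA kit, Illumina NovaSeq, paired reads of 150 bases) was performed by the authors, who trimmed reads with BBDuk and aligned them with STAR 2.6.0a to the Ensembl human transcriptome. The deposited values are raw counts per gene. Strandedness and the handling of reads with several matches are not given in the sources used here. The 10 samples were grouped by their labels. Genes were filtered with filterByExpr, normalized by TMM, and compared in edgeR 4.0.16 (R 4.3.3) by a model with 1 mean per group over all 10 samples, with Benjamini-Hochberg adjustment over 17230 genes. The study used limma; limma 3.58.1 and DESeq2 1.42.0 were alternatives here. The script was tested on simulated counts. Positions and lengths came from GENCODE (GRCh38). Same-numbered replicates did not deviate together, so no block was used. The members and gene lists were chosen with earlier results of these data known. Named genes were the members, CPT1A, in each list genes among the 3 with the smallest interaction p, and for each member the 3 genes most correlated with it. Some genes that this rule names are not reported here.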

Additional observations from a re-analysis of the deposited data

How the results depend on the processing

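Of 627 values of the 7 genes in 5 comparisons under alternatives, 600 kept their direction and their side of the limit, 10 lost the call, 11 gained it and 6 changed sign. Among the 627 were 35 values of the main fit itself, read at an adjusted p under 0.05, which could only gain calls. All gains came from this looser limit, except that of ACSL1 in OE versus KD without TMM factors. All losses and sign changes came from leaving out 1 sample. Where a control group then kept 1 sample, that sample was assumed to vary like the other groups. The number of the 7 genes called ran from 4 to 4 in KD versus NT, 1 to 2 in OE versus EV, 3 to 4 in the interaction, 2 to 4 in EV versus NT and 2 to 2 in OE versus KD. The lowest counts came without EV replicate 1 in OE versus EV, without NT replicate 1 or EV replicate 1 in the interaction, and without NT replicate 1, NT replicate 2 or EV replicate 1 in EV versus NT. ACSL5 changed sign in OE versus EV, to 0.20 without EV replicate 1, 0.06 without OE replicate 2 and 0.30 without OE replicate 3, and in EV versus NT, to -0.33 without NT replicate 1 and -0.11 without EV replicate 1. The full leave-one-out range of ACSL5 was 0.66 to 1.72 in KD versus NT, -0.58 to 0.30 in OE versus EV and -0.33 to 0.73 in EV versus NT. ACSL6 ran from -0.97 to 0.057 in EV versus NT, with the change of sign without EV replicate 1. These genes had 2 to 27 reads per sample. The cause was not tested.

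At an adjusted p under 0.05, 5 genes were called in OE versus EV and 6 in OE versus KD, where 52% and 59.8% of all tested genes were called. Without TMM factors the median of all genes moved to -0.12 in OE versus EV, -0.15 in the interaction and -0.15 in OE versus KD, and ACSL1 was called in OE versus KD at -0.23 (edgeR, adjusted p = 2.89e-05). The filter of 10 counts in every sample removed ACSL5 and ACSL6. The replicate numbers did not pair the samples, with a mean correlation of deviations of -0.003 over 13 same-numbered pairs and 0.002 over 24 others. With the replicate block 4, 2, 4, 4 and 2 of the 7 genes were called in KD versus NT, OE versus EV, the interaction, EV versus NT and OE versus KD. Of all 17230 tested genes, 5236, 4258, 3108, 1780 and 5870 were called, in the same order.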
